A study of Mus musculus with 12 samples.

Results

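Dendritic cells exposed for 12 h to particles made of γ-PGA, the polymer poly(γ-glutamic acid), were compared with cells at the start of exposure, over all genes that the arrays measured. The comparison used 6 of the 12 samples of the series, 3 at 12 h and 3 at 0 h, chosen by their titles. All groups were marrow cells of female mice aged 6 to 8 weeks, of a strain that the labels do not name. Cells had been grown for 7 days in GM-CSF at 20 ng/ml, and the non-adherent or loosely attached cells were taken as immature dendritic cells. The 12 h group had then received γ-PGA nanoparticles at 300 µg/ml for 12 h, and the 0 h group stands for the start. No culture kept 12 h without particles was among the samples, so exposure and time in culture cannot be told apart. The design names 3 independent experiments, and n is 3 per group throughout. GM-CSF cultures of marrow hold dendritic cells, macrophages and granulocyte precursors together, and in such bulk samples fewer cells of a type and less RNA per cell cannot be told apart.

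Dendritic cells take up particles, sense microbial or damaged material through Toll-like and other receptors, and then mature. Maturation runs largely through NF-kB, a family of transcription factors, and through interferons made by the cells themselves. Maturing cells make cytokines and chemokines, show costimulatory proteins to T cells, lose receptors of the resting state and stop dividing. Taken-up material also loads the lysosomes, and oxidative stress switches on antioxidant genes through the transcription factor NRF2.

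The samples were measured on Agilent 1-colour arrays, and their values came in a pair of forms. The first was the scanner's processed signal, a linear intensity, used here as log2 after subtraction of each array's 75th percentile. It is called the scanner level, and 0 means a signal at that percentile. The second was a deposited value table of linear ratios to the median of each probe's 3 values at 0 h, called the table ratio, so that 1 means the level at the start. Of 18403 genes tested, 11578 had a symbol. A gene counts as called, or is said to rise or fall, at an adjusted p under 0.05 over all genes (limma, Benjamini-Hochberg) and a change of at least 2-fold. Changes are given as log2 of 12 h minus 0 h, with the standard error of the fit (SE). A change is said to differ between the sources where a fit of the per-sample difference (table minus scanner) gave an adjusted p under 0.05 and at least 2-fold.

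Between 52.1% and 57.9% of the spots on these 6 arrays were well above background, and the 75th percentile lay between 338.6 and 472.3 intensity units. Pairs of arrays correlated on average at 0.999 within 0 h, at 0.998 within 12 h and at 0.826 between the times. These values cover only the 9012 genes of above-median signal with no missing value, of one organism on one array design. The arrays at 0 h lay on the first slide, those of 12 h replicates 1 and 2 on the second and that of 12 h replicate 3 on the third, so no slide held both groups. The arrays at 6 h alone link the first slide, which held replicate 1, to the second, which held replicates 2 and 3. The third slide is linked to the second by the arrays at 12 h alone. A fit with slide as a block, which rests on these few links, called 2519 genes higher and 2999 lower in the scanner values. In the table it called 3399 and 2074. Without the block the scanner called 2524 genes higher (13.7%) and 3108 lower (16.9%), while the deposited ratios gave 2887 higher (15.7%) and 2227 lower (12.1%). Over all genes the scanner's median change was -0.03 and the table's 0.22. Calls in either direction covered 30.6% of genes in the scanner values and 27.8% in the table. Groups that do not overlap were common: 12 h lay wholly above 0 h for 38% of genes and wholly below for 41.3% in the scanner values, and for 48.5% and 28.7% in the table. Centring the table's columns turned its split to 2095 higher and 2839 lower, so 42.5% of its calls were then rises in place of 56.5%. Quantile normalization of the table gave 43.3%.

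Whether the table's columns at each time hold the same hybridisations as the scanner files of that label could not be settled from the values, and table ratios are given under the label of their column. Each sample's departure from its group mean was set side by side in scanner and table over 9012 bright genes, and the correlations at 12 h were 0.02, 0.0794 and 0.144. Across genes the scanner change at 12 h correlated at 0.538 with the table's change at 12 h and at 0.639 with the table's change at 6 h. For the scanner values at 6 h these correlations were 0.644 against the table at 12 h and 0.729 against the table at 6 h. All of these comparisons share the samples at 0 h. They describe likeness only. Results are therefore ordered by whether both sources give them.

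Both sources called 1178 genes higher at 12 h (6.4% of all tested) and 1166 genes lower (6.34%). Quantile normalization of the table left 674 shared rises, and normexp correction of the scanner values left 556 shared falls. Rises made up 50.3% of the shared calls, a share that was 60.8% with normexp correction, 43.4% with quantile normalization of the table and 41.8% with its columns centred. Genes limited to a bound, by all arrays of a group being below background or saturated, were then left out. Genes with only some arrays of a group out of range stayed in. Among the 940 shared rises kept, the median change was 1.82 (scanner) and 1.91 (table), and 97 rose at least 8-fold in both. The 895 shared falls kept had medians of -1.75 and -1.74, and 30 fell at least 8-fold in both. A further 2993 genes (16.3%) were called by the scanner alone and 2475 (13.4%) by the table alone. Opposite calls were made for 295 genes (1.6%), of which 139 (0.755%) were higher by the scanner and lower by the table, and 156 (0.848%) the other way.

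**Figure D1:**
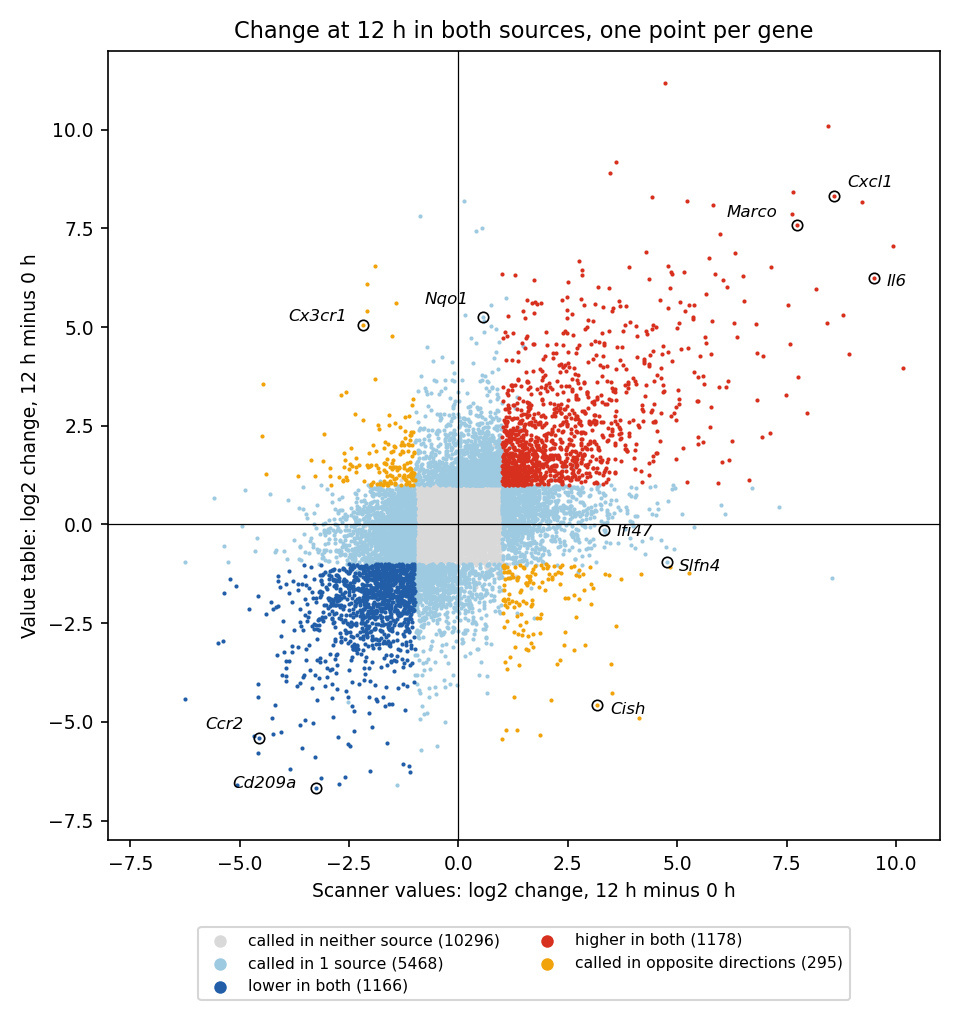
Log2 change at 12 h against 0 h for each of the 18403 genes, with the scanner values on the horizontal axis and the value table on the vertical axis, coloured by the calls of the fits. Red and blue points are the 1178 and 1166 genes called the same way in both, and yellow points are the 295 genes called in opposite directions.

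Inflammatory cytokines rose in both sources. Il6, which drives the acute-phase response and helps T cells, had scanner levels of -2.00, -2.06 and -2.11 at 0 h and of 7.47, 7.52 and 7.36 at 12 h. Its table ratios were 1, 0.952 and 1.03 at 0 h and 76.5, 79.9 and 71.0 at 12 h. Every sample at 12 h lay far above every sample at 0 h in both. The log2 changes were 9.51 ± 0.063 (SE, n = 3, limma adjusted p = 2.41e-13) and 6.25 ± 0.07 (adjusted p = 1.61e-12), and differed between the sources (adjusted p = 1.13e-09).

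Il12a, a subunit of the cytokine that turns T cells towards interferon gamma, had scanner levels of -4.01, -4.42 and -3.99 at 0 h, where 2 of 3 arrays were above background, and of 1.5, 1.57 and 1.45 at 12 h. Its table ratios at 12 h were 65.1, 70.5 and 61.9. The groups did not overlap, and the changes of 5.65 ± 0.12 and 5.83 ± 0.2 did not differ past the threshold between the sources (adjusted p = 0.396). Tnf, an early inflammatory mediator, had scanner levels between 1.2 and 1.24 at 0 h and between 6.70 and 6.75 at 12 h. In the table it stood at 19.4, 20.5 and 19.2 times the start. Il1b was saturated on all arrays at 12 h and rose at least 18.9-fold by scanner, beside table ratios of 18.4, 18.6 and 18.0.

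Of 19 measured cytokine genes, 10 rose in both and 0 fell in both, against 6.4% and 6.34% of all genes. The scanner median was 5.51 and the table median 1.29. With genes limited to a bound set at that bound the scanner median was 4.24. Over the settings tried the scanner median was 2.83 at the lowest. By the scanner 17 rose, a number that was 10 among genes well above background on every array at both times. Csf3, which drives granulocyte production, was below background at 0 h and rose at least 26.9-fold (scanner) and 50.5-fold (table). Il10, an anti-inflammatory cytokine, rose at least 134-fold (scanner) and 7.08-fold (table). Il1a, an alarm cytokine, had scanner levels from -2.16 to -2.04 at 0 h and from 6.61 to 6.77 at 12 h, beside table ratios of 42.9, 42.4 and 37.5.

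Chemokines that draw neutrophils were among the largest shared rises. Cxcl1 had scanner levels of -2.79, -2.66 and -2.51 at 0 h and of 6.00, 5.93 and 5.89 at 12 h. Its table ratios were 1, 0.801 and 5.58 at 0 h and 548, 548 and 491 at 12 h. The third sample at 0 h stood above the other 2 in the table, and every sample at 12 h was far above it. The changes were 8.59 ± 0.088 (adjusted p = 1.08e-12 with limma) and 8.33 ± 0.57 (adjusted p = 3.54e-07). Cxcl2 went from scanner levels between -0.39 and -0.30 to levels between 6.13 and 6.22, and its table ratios at 12 h were 82.2, 80.9 and 73.4. Cxcl3 went from 1.34 to 1.38 up to 7.16 to 7.24 by the scanner and reached table ratios of 274, 281 and 244. All 3 genes encode ligands of the receptor Cxcr2.

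The promoters of these chemokine genes and of Il6 are shown because they share a match to an NF-kB motif, GGG and TTTCC with any 2 bases between them, searched on both strands in windows from 250 bases before to 50 bases after each annotated start (RefSeq, GRCm38.p6). Capitals mark the match. The stretches lie at chr5:30013040-30013109 for Il6, chr5:90891144-90891213 for Cxcl1, chr5:90903772-90903841 for Cxcl2 and chr5:90785998-90786067 for Cxcl3, all on the plus strand.
Il6: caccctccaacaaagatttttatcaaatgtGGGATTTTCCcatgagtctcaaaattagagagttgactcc
Cxcl1: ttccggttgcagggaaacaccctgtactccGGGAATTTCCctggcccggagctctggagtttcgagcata
Cxcl2: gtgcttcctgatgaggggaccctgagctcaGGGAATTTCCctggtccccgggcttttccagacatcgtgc
Cxcl3: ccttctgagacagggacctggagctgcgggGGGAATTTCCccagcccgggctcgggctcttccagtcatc
The matches start 44, 71, 97 and 73 bases before the start, in that order. Cxcl1 and Cxcl2 each hold another match that is not marked.
Among neutrophil-attracting CXC chemokines 3 of 5 genes with a promoter in the table held this motif. Among NF-kB factors, targets and brakes 7 of 17 did (41.2%), among cytokines 3 of 15 (20%), among T-cell and monocyte chemokines 1 of 10, among maturation genes 1 of 10, and among all 27025 genes 1.89%. A match describes letters and not a bound site.

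Genes of NF-kB itself rose alike in both sources. Of 22 measured factors, targets and brakes, 16 rose in both (72.7%, against 6.4% of all genes) and 0 fell in either. The medians were 2.31 and 2.04, and 5 differed between the sources (22.7%, against 29.5% of all genes). Traf1, an adaptor of TNF receptors, had scanner levels of 3.66, 3.65 and 3.66 at 0 h and 7.25, 7.34 and 7.25 at 12 h, beside table ratios of 22.6, 24.2 and 21.1. Tnfaip3, the ubiquitin-editing brake A20, went from levels of 1.95, 2.03 and 2.01 to 6.03, 6.08 and 5.99 and to table ratios of 12.9, 12.9 and 11.7. Neither gene's groups overlapped in either source.

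Nfkb2, the precursor of the alternative NF-kB subunit, changed by 2.68 ± 0.046 and 2.75 ± 0.061, which did not differ past the threshold (adjusted p = 0.452 with limma). Nfkbia, the inhibitor that returns NF-kB to the cytoplasm, saturated at 12 h and rose at least 3.95-fold (scanner) and 3.93-fold (table). Of the 22 genes 12 were called in both with quantile normalization of the table. Traf3, a restraint on alternative NF-kB, was called by the table alone (1.24) and not under quantile normalization of the table (0.65). Tnip3, which binds A20, was called by the scanner alone (2.27 against 0.76).

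Toll-like receptors and their adaptors moved less. Of 20 measured, 6 rose in both (30%, against 6.4% of all genes) and 1 fell in both (5%, against 6.34%). Tlr1, a partner of Tlr2 in sensing lipopeptides, changed by 2.33 ± 0.06 and 3.87 ± 0.075, and Irak3, a brake on the pathway, by 2.52 ± 0.063 and 2.79 ± 0.075. Tlr2 rose by the table (1.80) and was short of 2-fold by the scanner (0.85). Tlr4, the lipopolysaccharide receptor, was called in neither (-0.91 and -0.31). Myd88, the shared adaptor, rose by the scanner alone (2.08 against 0.26). Ly86, a partner of the receptor Cd180, fell in both.

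Maturation genes rose in both sources. Fscn1, which bundles actin in dendrites, had scanner levels of -0.15, -0.14 and -0.23 at 0 h and of 3.66, 3.73 and 3.61 at 12 h, and table ratios at 12 h of 16.6, 15.2 and 15.3. The changes of 3.84 ± 0.059 and 3.93 ± 0.082 did not differ past the threshold (adjusted p = 0.457 with limma). Cd200, a surface protein that restrains myeloid cells, went from scanner levels of -2.40, -2.10 and -2.46 to 2.97, 2.95 and 2.91, and to table ratios of 49.8, 46.7 and 43.4. Tnfrsf9, the costimulatory receptor 4-1BB, changed by 3.51 ± 0.064 and 3.45 ± 0.072. All samples at 12 h lay above those at 0 h for these 3 genes.

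Ccr7, which directs migration towards lymph nodes, had scanner levels of 3.66, 3.62 and 3.65 at 0 h and of 7.13, 6.94 and 7.16 at 12 h, beside table ratios of 9.56, 9.65 and 9. Cd83, a marker of mature cells, changed by 2.29 ± 0.046 and 2.91 ± 0.075. Cd86, a costimulator of T cells, changed by 2.17 ± 0.06 and 1.37 ± 0.072, and its table value fell short of 2-fold under quantile normalization (0.78) and as the mean of its probes (0.72). Of 15 genes of maturation and costimulation 10 rose in both and 0 fell in both, against 6.4% and 6.34% of all genes. The medians were 2.96 and 1.37, and 7 rose in both under quantile normalization of the table at the lowest.

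**Figure D2:**
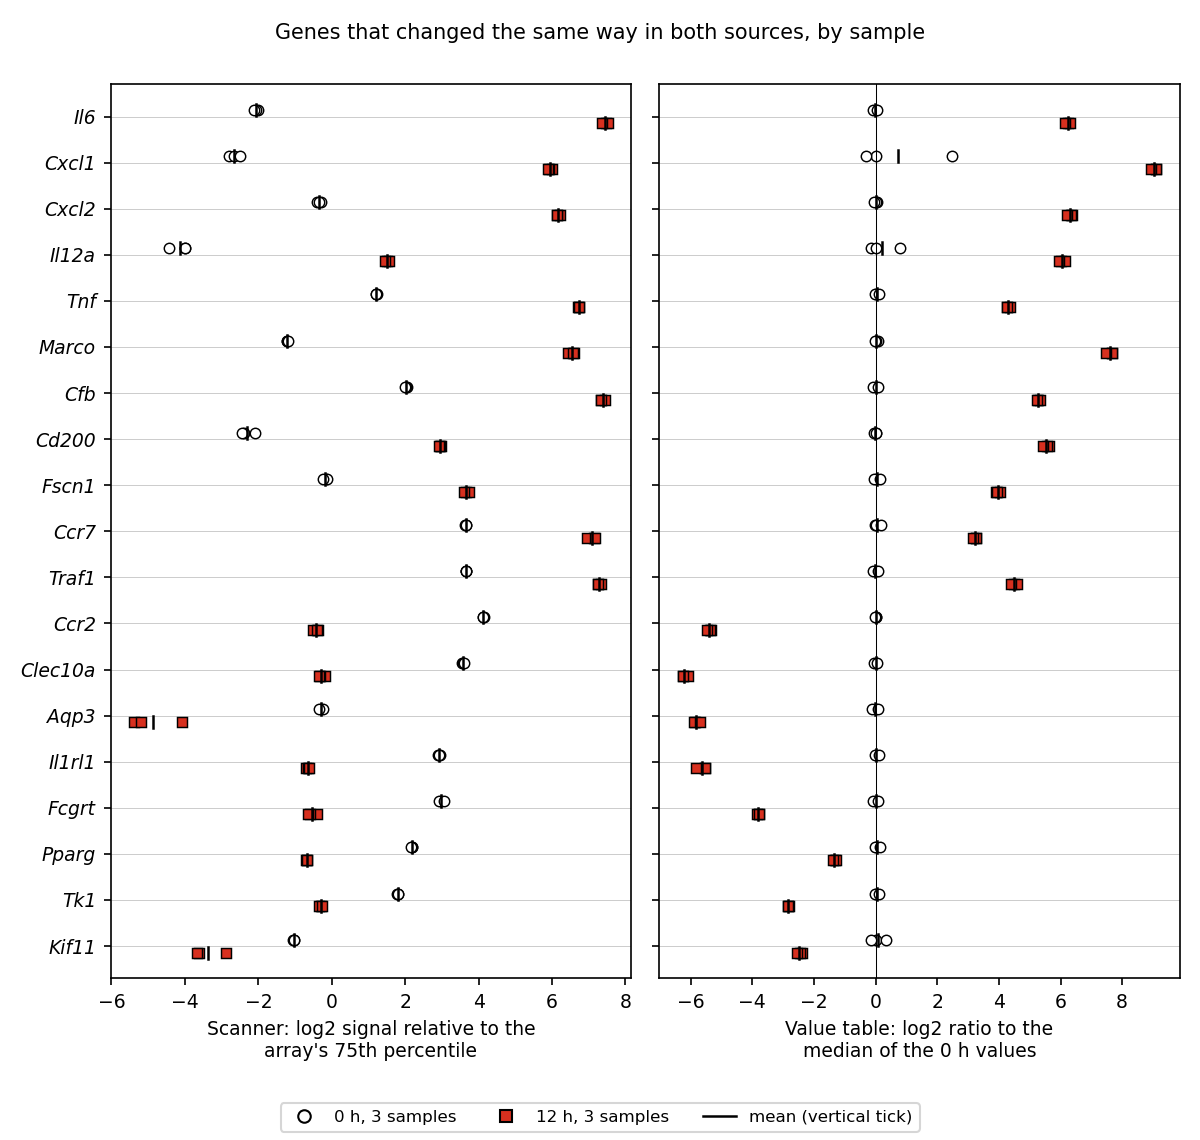
Values of 19 genes called the same way in both sources, one symbol per sample, with open circles for the 3 samples at 0 h, red squares for the 3 samples at 12 h and a tick for each mean. The left axis is the scanner level in log2 units and the right axis the log2 of the table ratio, and in neither panel do the groups of any gene overlap.

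Chemokines that draw T cells and monocytes rose in both for 8 of 16 measured genes (50%, against 6.4% of all genes). Ccl22, a ligand of Ccr4 on regulatory T cells, changed by 4.78 ± 0.091 and 4.37 ± 0.086. Cxcl9, an interferon-induced attractant of T cells, changed by 4.28 ± 0.045 and 4.90 ± 0.24. Ccl5 saturated at 12 h and rose at least 17.0-fold (scanner) and 27.4-fold (table). In the same list 3 genes were called in opposite directions (against 1.6% of all genes). Of these 3, Ccl7 and Ccl12 are described with the secreted factors that parted.

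Some enzymes and secreted proteins of inflammation rose in both. Of 14 enzymes of prostaglandin and leukotriene synthesis 2 rose and 5 fell in both, against 6.4% and 6.34% of all genes. Of 10 acute-phase and antibacterial proteins 3 rose in both, against 6.4% of all genes. Another 6 were called in neither, near the share of all genes (10296 of 18403). Ptgs2, the inducible enzyme of prostaglandin synthesis, rose at least 708-fold (scanner) and 133-fold (table), and Ptges, which makes prostaglandin E2 from its product, changed by 5.65 ± 0.083 and 4.59 ± 0.057. Nos2, the inducible nitric oxide synthase, rose at least 44.4-fold and 9.79-fold, and Slc7a2, a carrier of its substrate arginine, changed by 4.88 ± 0.11 and 4.13 ± 0.13. Of 7 enzymes of arginine, nitric oxide and itaconate metabolism 6 rose in both (85.7%, against 6.4% of all genes). Arg1, which competes with Nos2 for arginine, fell by the table alone (-4.81 ± 0.094) with -0.78 ± 0.069 by the scanner, short of 2-fold.

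Cfb, factor B of the alternative complement pathway, had scanner levels of 2.05, 2.01 and 1.98 at 0 h and of 7.35, 7.45 and 7.33 at 12 h, beside table ratios of 38.3, 40.2 and 37.4. The changes of 5.36 ± 0.043 and 5.27 ± 0.064 did not differ past the threshold (adjusted p = 0.266 with limma). Saa1, an acute-phase apolipoprotein, changed by 6.04 ± 0.11 and 6.19 ± 0.06, which became 4.42 and 3.15 as the mean of its 2 probes. Its sister genes are near-identical in sequence, so its probes may bind their transcripts too. Casp4, an inflammatory caspase, changed by 3.72 ± 0.037 and 2.20 ± 0.074, and Mefv, which encodes the inflammasome sensor pyrin, by 2.89 ± 0.046 and 4.95 ± 0.07.

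Receptors for particles and microbes changed strongly in both directions. Marco, a scavenger receptor for unopsonised particles and bacteria, had scanner levels of -1.21, -1.22 and -1.2 at 0 h and of 6.44, 6.60 and 6.57 at 12 h. Its table ratios were 1.05, 1 and 0.978 at 0 h and 202, 202 and 179 at 12 h. These were rises of 214-fold and 192-fold with no overlap between groups, and the sources did not differ past the threshold (adjusted p = 0.128 with limma). Olr1, a receptor for oxidised lipoprotein, rose 7.6-fold and 9.95-fold. Clec4e, the lectin Mincle, rose 7.04-fold and 87.9-fold, a difference between the sources (adjusted p = 2.11e-10). Ly75, the endocytic lectin DEC-205, rose 11.6-fold and 10.5-fold.

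Other lectins fell. Clec10a, a galactose lectin of immature cells, had scanner levels of 3.54, 3.58 and 3.60 at 0 h and of -0.17, -0.32 and -0.35 at 12 h, and table ratios of 0.0131, 0.0147 and 0.0131. The samples at 12 h lay below all those at 0 h in both. Cd209a, the dendritic cell lectin DC-SIGN, was below background on all arrays at 12 h and fell at least 5.42-fold by scanner, and it stood at the table's lowest value of 0.01 in all 3 columns. With normexp background correction its scanner change was -0.74 and no longer called. Of 15 C-type lectin receptors 5 rose and 5 fell in both (against 6.4% and 6.34% of all genes), numbers that were 3 and 2 with normexp correction. Mrc1, the mannose receptor, fell by 1.42 and by 2.92. Fcgrt, the neonatal Fc receptor that recycles antibody, went from scanner levels of 2.97, 2.92 and 3.04 to -0.42, -0.58 and -0.66 and to table ratios of 0.0723, 0.0696 and 0.0731.

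Receptors for chemoattractants changed in both directions. Ccr2, which brings monocytes out of the marrow, had scanner levels of 4.14, 4.11 and 4.12 at 0 h and of -0.52, -0.39 and -0.39 at 12 h, and table ratios of 0.0246, 0.0241 and 0.0224. Its changes were -4.55 ± 0.14 and -5.40 ± 0.05 (adjusted p = 6.07e-10 and 6.08e-13 with limma). Cxcr2, the receptor of the neutrophil chemokines, fell by 3.24 and by 2.90, while Fpr1, a receptor for formyl peptides, changed by 2.60 ± 0.037 and 3.43 ± 0.065. Of 15 such receptors 4 rose and 3 fell in both, against 6.4% and 6.34% of all genes.

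Other genes fell in both as single members of lists that moved both ways. Of 18 lipid handling genes 5 rose and 1 fell in both, of 13 integrins 2 rose and 3 fell, and of 11 complement genes 2 rose and 4 fell, with 2 in opposite directions (against 6.4% and 6.34% of all genes). Aqp3, a channel for water and glycerol, had scanner levels of -0.29, -0.25 and -0.34 at 0 h and of -5.38, -5.19 and -4.07 at 12 h, where 1 of 3 arrays was above background, and table ratios of 0.0172, 0.0169 and 0.0195. Il1rl1, the receptor of interleukin 33, fell by 3.57 and by 5.66. Pparg, a nuclear receptor of lipid metabolism, fell by 2.86 and by 1.37, a difference between the sources (adjusted p = 1.61e-07). Tbxas1, thromboxane synthase, fell by 2.64 and by 1.75, and Itgb7, an integrin subunit, by 2.10 and by 2.84.

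Genes of mitosis fell as a group in both sources. Of 18 measured, 17 fell in both (94.4%, against 6.34% of all genes) and 0 rose in either. The medians were -1.95 and -1.68, or -1.91 in the table relative to all genes, and for 0 of the 18 did the change differ between the sources by at least 2-fold. Plk1, a kinase that starts mitosis, had scanner levels of 3.52, 3.50 and 3.46 at 0 h and of 1.40, 1.47 and 1.49 at 12 h, and table ratios of 0.22, 0.222 and 0.197. Ccna2, cyclin A2, fell by 2.17 (SE 0.044) and by 2.37 (SE 0.083). Kif11, a spindle motor, went from scanner levels of -1.02, -1.05 and -1.04 to -3.61, -3.67 and -2.87, and to table ratios of 0.191, 0.182 and 0.171. Cdk1, the kinase that cyclins A and B activate, fell by 1.12 and by 1.68. Tpx2, a spindle assembly factor, was the gene called by the table alone (-1.48), with -0.97 by the scanner. Over the settings tried 14 to 17 of the 18 fell in both.

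The motif TTTGAA, named the cell cycle homology region, was searched on both strands and lay in the promoters of 12 of 15 mitosis genes with a promoter (80%), against 20.2% of all genes. The promoter of Cdk1 is shown as an example with a match in capitals, starting 71 bases before the start on the minus strand of chr10:69352948-69353013 (GRCm38.p6, RefSeq). Another match in this promoter starts 15 bases before the start and lies outside the stretch shown.
Cdk1: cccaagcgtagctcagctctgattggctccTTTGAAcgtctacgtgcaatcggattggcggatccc

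Genes of DNA replication fell less evenly. Of 18 measured, 6 fell in both (33.3%, against 6.34% of all genes) and 0 rose in either, with medians of -0.59 and -1.30. Tk1, which makes thymidine phosphate, fell by 2.10 and by 2.86 (adjusted p = 1.55e-10 and 3.7e-11 with limma). Cdc6, a loader of the replication helicase, had scanner levels of -1.54, -1.53 and -1.52 at 0 h and of -1.72, -1.58 and -1.62 at 12 h, and table ratios of 0.168, 0.176 and 0.151 at 12 h. It fell by the table alone. Cdkn2b, an inhibitor of the kinases of cyclin D, changed by 2.40 ± 0.097 and 3.99 ± 0.068, and Ccnd1, cyclin D1, fell by 1.33 and by 2.52. The scanner value of Ccnd1 was short of 2-fold with normexp correction (-0.94).

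Of genes of glycolysis and the hypoxia response 2 of 20 rose in both (10%, against 6.4% of all genes), of heat shock proteins 2 of 11, and of lipid handling genes 5 of 18. Pfkfb3, which speeds glycolysis, had scanner levels of 2.43, 2.38 and 2.48 at 0 h and of 5.36, 5.37 and 5.24 at 12 h, and changes of 2.90 ± 0.054 and 2.82 ± 0.079. Hspa1a, the inducible Hsp70, rose 68.8-fold and 11.1-fold, Fabp4, a fatty acid carrier, 31.6-fold and 7.81-fold, and Acsl1, which activates fatty acids, 6.66-fold and 12.1-fold. Mmp14, a membrane-bound collagenase, rose 7.63-fold and 31.8-fold, and Mmp13, a secreted one, 32.7-fold and 8.25-fold. Tnfrsf1b and Fas, receptors of TNF and of Fas ligand, changed by 3.61 and 2.46 by the scanner and 3.14 and 2.63 by the table. Of 21 subunits and carriers of oxidative phosphorylation 0 were called in both, against 6.4% higher and 6.34% lower of all genes. Called in neither were 19 of the 21, against 10296 of all 18403 genes.

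Interferon-stimulated genes were a class on which the sources parted. By the scanner all 23 measured type I interferon-stimulated genes rose, while 10 rose and 3 fell by the table. The medians were 2.90 and 0.30, the latter 0.07 relative to all genes, and 21 of 23 (91.3%) changed by less in the table, against a differing change in 29.5% of all genes. Of 12 interferon-inducible GTPases 12 rose by the scanner, while 5 rose and 2 fell by the table, against the same shares. Their medians were 3.23 and 0.51. Over the settings tried the table medians stayed above 0 and were lowest, at 0.04 and 0.18, with quantile normalization of the table.

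The genes that rose in both include Rsad2, the antiviral protein viperin, which saturated at 12 h and rose at least 23-fold (scanner) and 32.0-fold (table). Ifit1, which binds viral RNA, had scanner levels of 2.12, 2.12 and 2.20 at 0 h and of 6.10, 6.00 and 6.04 at 12 h, and table ratios of 6.31, 6.35 and 5.69. Gbp2, a GTPase that attacks the vacuoles of microbes, rose 19.4-fold and 11.6-fold. Ifnb1, interferon beta itself, changed by 2.17 ± 0.07 and 4.35 ± 0.12, so here the table's change was the larger (adjusted p = 1.3e-06 with limma).

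Other interferon genes rose by the scanner alone. Ifi47, an immunity-related GTPase, had scanner levels of 1.75, 1.70 and 1.71 at 0 h and of 5.00, 5.11 and 5.00 at 12 h. Its table ratios were 1, 0.939 and 1.05 at 0 h and 0.968, 0.893 and 0.846 at 12 h, which overlapped. The changes were 3.32 ± 0.043 and -0.15 ± 0.076. Irgm2, a related GTPase, went from scanner levels of 1.96, 1.99 and 1.96 to 4.44, 4.44 and 4.33, with table ratios of 0.763, 0.729 and 0.636 at 12 h. Zbp1, a sensor of nucleic acids, rose 10.2-fold by the scanner with -0.14 ± 0.099 by the table.

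Gbp7 and Oas2 were called in opposite directions. Gbp7, a guanylate-binding protein, had scanner levels of 0.16, 0.16 and 0.25 at 0 h and of 2.56, 2.61 and 2.68 at 12 h, and table ratios of 0.281, 0.265 and 0.259. Oas2, a synthase of 2-5A that activates RNA decay, went from scanner levels of 1.43, 1.41 and 1.44 to 3.09, 3.17 and 3.07, with table ratios of 0.251, 0.282 and 0.26. Both differences between the sources passed the test (adjusted p = 6.31e-10 and 7.71e-10 with limma). Gbp9 and Oas3 were also called in opposite directions, but as the mean of their probes their table changes of -0.68 and -0.75 were short of 2-fold. Probes for these families may bind transcripts of near-identical sister genes.

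Promoters of interferon genes are shown for a gene that rose in both, Ifit1, for a gene called by the scanner alone, Irgm2, and for a gene called in opposite directions, Gbp7. The core of the interferon response element, GAAA and again GAAA with any 2 bases between them, was searched on both strands and can overlap itself. Capitals mark the match, read on the strand shown, at chr19:34640755-34640824, chr11:58214883-58214952 and chr3:142530253-142530322, plus strand, GRCm38.p6 (RefSeq).
Ifit1: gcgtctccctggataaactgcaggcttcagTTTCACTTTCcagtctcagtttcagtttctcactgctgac
Irgm2: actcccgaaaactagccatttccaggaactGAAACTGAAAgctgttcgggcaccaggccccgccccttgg
Gbp7: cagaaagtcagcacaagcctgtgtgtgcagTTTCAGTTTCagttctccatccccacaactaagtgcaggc
In Ifit1 and Gbp7 the motif lies on the minus strand. The stretch of Ifit1 holds another match that is not marked.
Of interferon-stimulated genes with a promoter 11 of 20 (55%) held the motif, of the GTPases 8 of 9 (88.9%), and of all genes 3.99%. Genes called in both, in 1 source and in opposite directions are all among those that held it.

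The Schlafen family, interferon-inducible regulators of growth, rose by the scanner in 7 of 7 members, against 13.7% of all genes. In the deposited ratios 0 rose and 1 fell, against 15.7% and 12.1% of all genes. Among 7 members such low counts do not stand apart from those shares. The medians were 2.67 and -0.48, and the change differed between the sources for 7 of 7, against 29.5% of all genes. Slfn4 had scanner levels of -2.20, -2.26 and -2.41 at 0 h and of 2.45, 2.45 and 2.51 at 12 h, and table ratios of 0.574, 0.488 and 0.512. Its table change of -0.96 was just short of 2-fold and passed with centred columns (-1.19), without 0 h replicate 3 (-1.01) and without 12 h replicate 1 (-1.02). Slfn1 fell by the table (-2.83 ± 0.089) while it rose 2.99-fold by the scanner.

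Feedback inhibitors of cytokine signalling parted as well. Cish, an inhibitor of STAT5 signals, had scanner levels of 2.28, 2.30 and 2.28 at 0 h and of 5.51, 5.50 and 5.37 at 12 h. Its table ratios were 1.03, 0.995 and 1 at 0 h and 0.0415, 0.043 and 0.0417 at 12 h. That is a rise of 9.02-fold beside a fall of 24.0-fold, with tight samples on both sides (adjusted p = 2.83e-12 for the difference, limma). Socs1, an inhibitor of JAK kinases, rose 16.3-fold by the scanner with -0.59 ± 0.062 by the table. Socs3, which restrains interleukin 6 signals, saturated at 12 h and rose at least 72.2-fold (scanner) and 3.11-fold (table), the latter just short of 2-fold with quantile normalization (0.99). Of 8 members 1 rose in both and 2 were called in opposite directions, against 6.4% and 1.6% of all genes. The second of these, Socs2 (1.02 and -1.06), was marginal in both. It was short of 2-fold by the scanner with normexp correction (0.88), with quantile normalization (0.88) and without 12 h replicate 1, and by the table with quantile normalization (-0.99) and with slide as a block (-0.92).

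Some secreted factors parted too. Osm, a cytokine of the interleukin 6 family, had scanner levels of -1.57, -1.55 and -1.47 at 0 h and of 1.53, 1.52 and 1.48 at 12 h, and table ratios of 0.262, 0.243 and 0.261. Ccl12, a monocyte chemokine, went from scanner levels of -2.36, -2.45 and -2.42 to 0.49, 0.48 and 0.47, with table ratios of 0.118, 0.157 and 0.0965. Ccl7, also a monocyte chemokine, changed by 3.35 ± 0.062 and -1.25 ± 0.062. Il23a, a subunit of interleukin 23, rose at least 38.9-fold by scanner from below background and was not called by the table (0.44 ± 0.3).

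Il33, an alarm cytokine, rose at least 139-fold by scanner, and in the table its columns at 0 h read 1, 177 and 0.89. The table change of -1.36 ± 1.6 rested on 0 h replicate 2, without which it was 1.16 and called higher. Tnfsf8, the ligand of CD30, rose 4.33-fold by the scanner, and its table ratios fell to 0.0494, 0.0442 and 0.0406. Cd80, a costimulator of T cells, had scanner levels of -1.72, -1.80 and -1.73 at 0 h and of 1.91, 1.77 and 2.00 at 12 h, but table ratios of 0.813, 0.86 and 0.687, so it was called by the scanner alone.

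Some antibody receptors and a cyclin belong to the same side. Of 6 measured Fc receptors 2 rose by the scanner and fell by the table (against 0.755% of all genes). Of the others 1 rose in both, 1 fell in both and 2 were called in neither. Fcgr1, the high-affinity receptor for IgG, had scanner levels of 5.36, 5.34 and 5.36 at 0 h and of 7.05, 7.13 and 6.99 at 12 h, with table ratios of 0.144, 0.147 and 0.136. Fcgr4, a receptor for IgG2, changed by 1.61 ± 0.051 and -1.36 ± 0.072. Ccnd2, cyclin D2, rose 38.4-fold by the scanner and fell by 1.24 in the table, which was short of 2-fold with quantile normalization (-0.96). Irf4, a transcription factor of dendritic cell subsets, changed by 1.79 ± 0.1 and -2.38 ± 0.075.

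**Figure D3:**
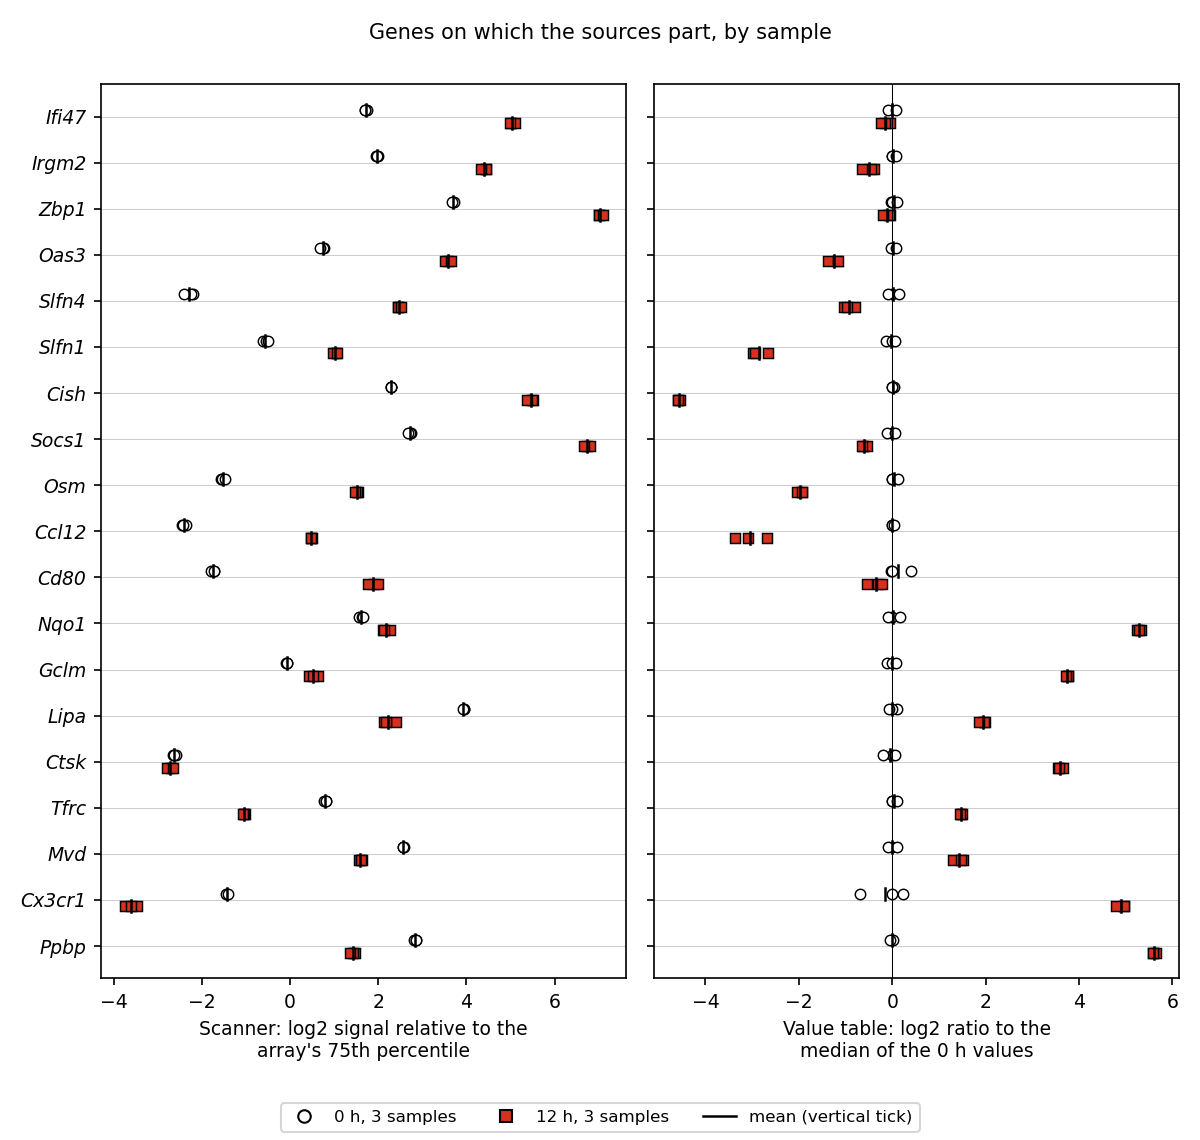
Values of 19 genes on which the sources part, one symbol per sample, with open circles for 0 h, red squares for 12 h and a tick for each mean. The left axis is the scanner level and the right axis the log2 of the table ratio, so that Cish lies higher at 12 h on the left and lower on the right, and Ppbp the other way.

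Antioxidant genes rose further in the table. Of 21 genes of NRF2 and antioxidant defence, 8 rose in both, 16 rose by the table and 9 by the scanner, and 0 fell in either. The medians were 0.65 and 2.47. The change differed between the sources for 16 (76.2%, against 29.5% of all genes) and was larger in the table for 15 of them. Slc7a11, which imports cystine for glutathione, had scanner levels of 0.15, 0.08 and 0.29 at 0 h and of 3.05, 3.1 and 2.99 at 12 h, and table ratios of 48.5, 48.4 and 47.0. Hmox1, which breaks down haem, rose 3.97-fold and 19.3-fold. Nqo1, a quinone reductase, had scanner levels of 1.57, 1.64 and 1.64 at 0 h and of 2.27, 2.11 and 2.13 at 12 h, a change of 0.56 ± 0.066 that is short of 2-fold. Its table ratios at 12 h were 37.8, 40.4 and 39.0. Gclm, a subunit of the enzyme that starts glutathione synthesis, changed by 0.61 ± 0.057 and 3.75 ± 0.06.

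Of 24 lysosomal genes 0 were called the same way in both. By the scanner 4 of the 24 fell, near the 16.9% of all genes. In the deposited ratios 10 of the 24 rose, against 15.7% of all genes, and 3 did with quantile normalization of the table. The medians were -0.36 and 0.77, and 15 of 24 (62.5%, against 29.5% of all genes) differed between the sources. Lipa, lysosomal acid lipase, had scanner levels of 3.94, 3.94 and 3.91 at 0 h and of 2.12, 2.40 and 2.17 at 12 h, but table ratios of 3.96, 3.92 and 3.62. Ctsk, cathepsin K, changed by -0.09 ± 0.065 and 3.64 ± 0.091. Of 9 iron genes 4 rose in both (44.4%, against 6.4% of all genes), and 2 did with quantile normalization of the table. The iron medians were 0.97 and 1.28. Tfrc, the transferrin receptor, fell 3.60-fold in the scanner values but rose 2.72-fold in the table, which was short of 2-fold with quantile normalization (0.82). Slc11a1, a metal carrier of phagosomes, rose in both (1.70 ± 0.038 and 4.58 ± 0.052).

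Of 23 measured genes of sterol synthesis, 13 rose by the table, against 15.7% of all genes. By the scanner 3 of the 23 rose, all 3 of them in both, near the 13.7% of all genes that rose by the scanner. Another 2 fell by the scanner, against 16.9% of all genes. The medians were 0.21 and 1.18, and 4 rose by the table and 1 in both with quantile normalization of the table. Hmgcs1, an early enzyme of the pathway, had scanner levels of 2.85, 2.96 and 2.92 at 0 h and of 3.49, 3.65 and 3.46 at 12 h, and table ratios of 3.19, 3.24 and 3.07. Pmvk, phosphomevalonate kinase, rose 7.04-fold and 4.46-fold. Dhcr7, which completes cholesterol, fell 6.57-fold by the scanner and was not called by the table (0.14 ± 0.068). Mvd, mevalonate diphosphate decarboxylase, changed by -0.97 ± 0.044 and 1.43 ± 0.071. It passed the fold by the scanner with quantile normalization (-1.03) and missed it in the table with quantile normalization (0.95).

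Among the 156 genes that fell by the scanner and rose by the table (0.848% of all genes) were 2 of 15 chemoattractant receptors and 3 of 11 scavenger receptors. Cx3cr1, the fractalkine receptor, had scanner levels of -1.42, -1.45 and -1.41 at 0 h and of -3.75, -3.47 and -3.60 at 12 h, and table ratios of 31.1, 31.2 and 27.7. Its scanner change of -2.18 ± 0.075 was short of 2-fold as the mean of its 2 probes (-0.78) and with normexp correction (-0.96). Cxcr4, the receptor of Cxcl12, changed by -1.88 ± 0.073 and 1.5 ± 0.046. Colec12, a scavenger collectin, went from scanner levels of 0.06, 0.02 and -0.10 to -2.14, -2.19 and -2.26, with table ratios of 6.26, 6.30 and 5.62. Cd5l, a secreted scavenger protein of macrophages, fell 10.3-fold in the scanner values but rose 3.1-fold in the table. Of 11 scavenger receptors 3 were called in opposite directions, with medians of -1.09 and 1.09.

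Ppbp, a CXC chemokine of platelets and myeloid cells, had scanner levels of 2.80, 2.86 and 2.86 at 0 h and of 1.47, 1.42 and 1.36 at 12 h, but table ratios of 49.9, 48.2 and 47.9. It was the 1 member of the neutrophil-attracting list called in opposite directions, and its neighbour in that list, Pf4, rose by the table alone (-0.45 ± 0.056 and 2.37 ± 0.067). Gpr162, an orphan receptor, changed by -2.09 ± 0.091 and 6.09 ± 0.12, and Lyzl4, a lysozyme-like protein, by -2.09 ± 0.059 and 5.41 ± 0.075. With normexp correction the scanner change of Gpr162 was -0.97. Slamf8, a receptor of phagocytes, fell by 2.58 (SE 0.72) by scanner but rose 10.2-fold in the table, and with slide as a block its scanner change was -0.84 and not called.

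**Figure D4:**
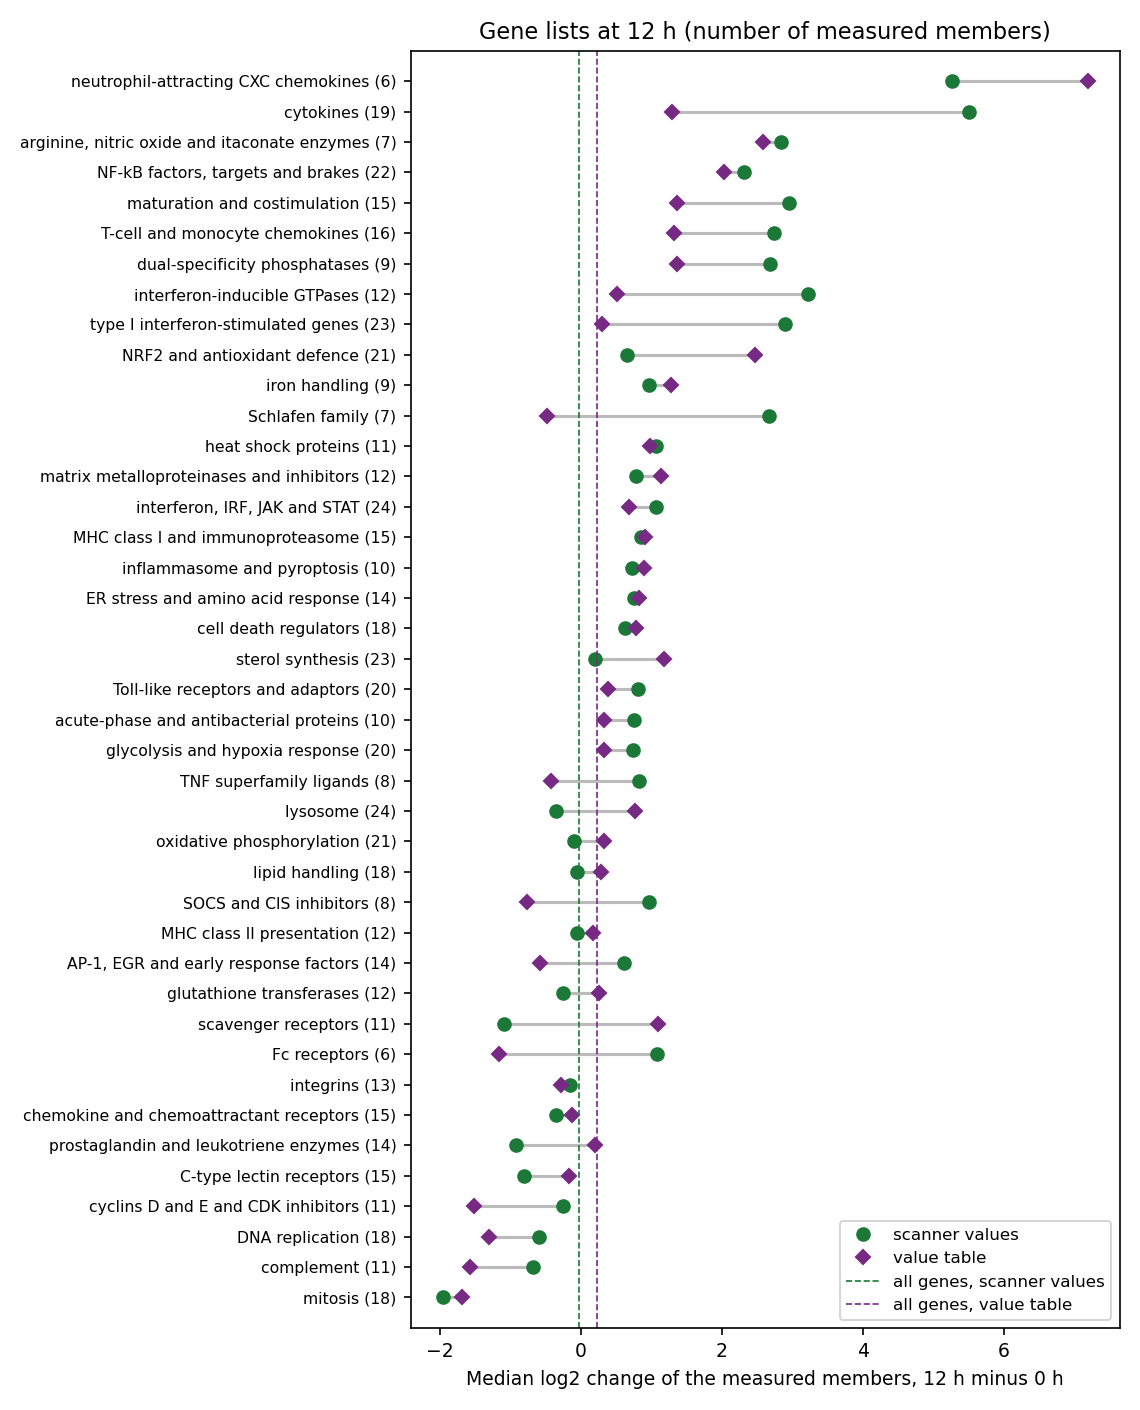
Median log2 change at 12 h of the measured members of each gene list in the scanner values (green circles) and the value table (purple diamonds), with the number of members in brackets. Dashed lines mark the medians of all genes, -0.03 and 0.22, and the gap between the symbols is wide for the Schlafen family and narrow for mitosis.

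Across symbol families and signal classes the parting was uneven. Opposite calls made up 1.6% of all genes, but 2.19% of the 4602 genes of lowest scanner signal and 0.978% of the 4601 genes of highest. Ribosomal protein genes (Rpl and Rps) differed between the sources in 1.22% of 82 members, and zinc finger genes named Zfp in 16.7% of 215. Solute carriers (Slc) differed in 39.6% of 222, and 71 of those 88 changed by more in the table. Histone genes fell in both for 8 of 40 (20%, against 6.34% of all genes) and rose in both for 0. Of 246 olfactory receptor genes 13 rose in both, a share of 5.28% that is near the 6.4% of all genes, and 0 fell in both. These are descriptions with no test.

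The sources also parted on the step from 6 h to 12 h, which rests on the same samples at 12 h. They shared 57 rises (0.31% of all genes) and 19 falls (0.103%), which were 8 and 4 with quantile normalization of the table. Cfb changed from 6 h to 12 h by 2.22 and 1.54, Pfkfb3 by 1.62 and 1.34, Saa1 by 1.48 and 1.82 and Stat4, a transcription factor of interleukin 12 signals, by 2.03 and 1.19. All 23 interferon-stimulated genes were higher at 12 h than at 6 h by the scanner (against 4.89% of all genes), while 0 were higher and 15 lower by the table (against 2.73%). The GTPases gave 12 higher by the scanner and 5 lower by the table. Of the sterol genes 18 of 23 were lower at 12 h than at 6 h by the scanner (against 2.1%) and 0 by the table, with medians of -1.91 and 0.09. Mitosis genes were lower for 8 of 18 by the table and for 0 by the scanner.

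**Figure D5:**
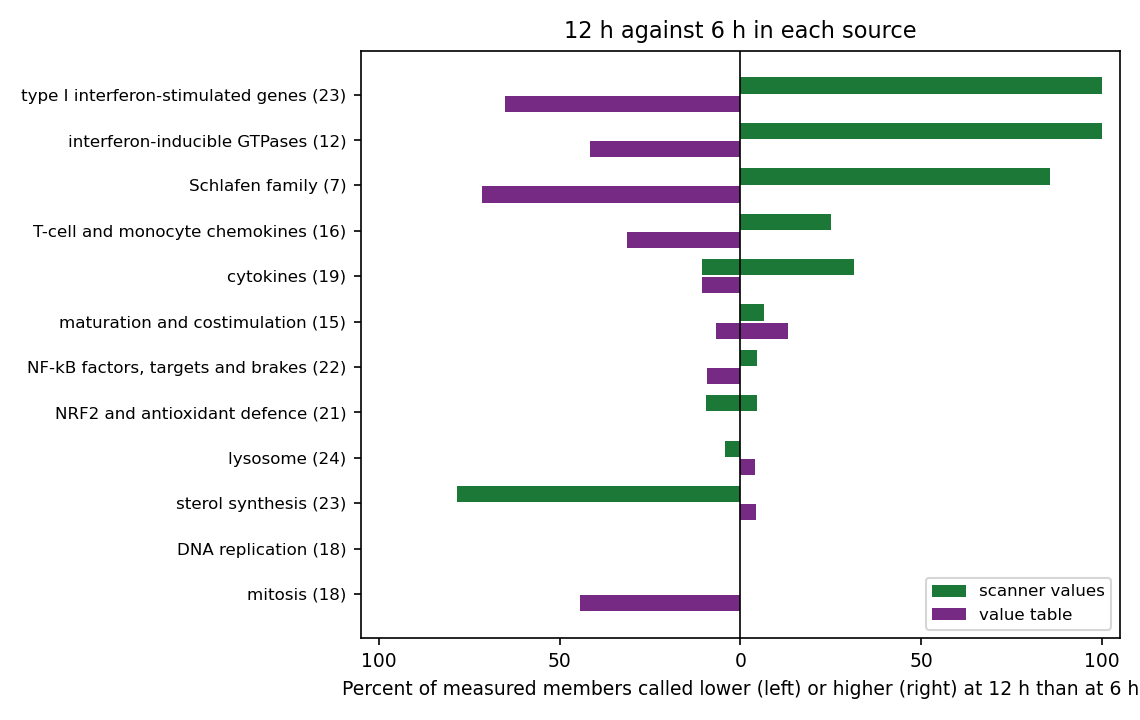
Percent of the measured members of 12 gene lists called lower (bars to the left) or higher (bars to the right) at 12 h than at 6 h, with green bars for the scanner values and purple bars for the value table. For type I interferon-stimulated genes the green bar reaches 23 of 23 higher and the purple bar 15 of 23 lower.

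Markers of the cells a marrow culture can hold were summed as linear scanner levels. Of 8 dendritic cell markers 8 were above background at 0 h and 7 at 12 h, all but Cd209a, and their sum was 209 to 217 at 0 h and 223 to 248 at 12 h. The sum of 6 macrophage markers was 150 at 0 h and 266 to 294 at 12 h, and that of 7 granulocyte markers was 273 to 281 and 302 to 337. A linear sum weights bright members most. Over all genes the scanner called 13.7% higher and 16.9% lower, and the deposited ratios 15.7% and 12.1%. Of the 8 dendritic cell markers 2 were called higher and 1 lower in each source. Of the 6 macrophage markers the scanner called 1 higher and 3 lower, and the deposited ratios called 0 higher and 4 lower. Their median changes were -0.36 and -1.34, and Csf1r and Cd68 of that list were not among the measured genes. Of the 7 granulocyte markers 0 rose in either source and 1 fell by the scanner and 4 by the table, with medians of -0.37 and -2.01. Markers of T and NK cells summed to 3.57 to 3.76 at 0 h and to 1.23 to 1.39 at 12 h, with Cd3g below background at 12 h. Of the 6 measured, the scanner called 1 higher and 2 lower, and the deposited ratios called 1 higher and 0 lower. Their median changes of 0.15 and 0.50 were above 0, so the lower sum does not describe most members. Mast cell and basophil markers summed to between 4.13 and 4.43 at both times. The plasmacytoid list, which holds the interferon-stimulated gene Bst2, summed to 33.1 to 33.5 at 0 h and to 198 to 236 at 12 h. What these shifts contribute to the changes above was not tested.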

How the data were processed

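RNA of all 12 samples was labelled with Cy3 and hybridised to Agilent arrays, 3 arrays per time. Each array's processed signal is a linear intensity, background-subtracted and detrended within the array by Feature Extraction 9.1.3.1, per the file headers. The value table deposited by the authors holds linear ratios to the median of each probe's 3 values at 0 h, with 0.01 as its lowest value, found from the values (any scaling of one column against another: not stated in the sources used).

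From these, log2 intensities minus each array's 75th percentile and log2 ratios were computed. Control probes, outlier spots (51 on the 6 arrays) and probes not well above background on all arrays of at least 1 group were left out, which kept 23492 probes. The brightest probe stood for a gene. Probes were named through RefSeq accessions (GRCm38.p6 table, names only), of which 22940 of 25422 matched. Each source was fitted over all 12 samples with limma 3.58.1 in R 4.3.3 (8 residual degrees of freedom), and p-values were adjusted by Benjamini-Hochberg. A probe below background or saturated on all arrays of a group gave a bound ("at least"), with the lowest signal well above background standing for the dim side. The fit was tested on simulated data.

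Named genes were the 15 largest shared rises and falls, the 8 largest opposite calls each way, the leading members of each gene list and a set of well-known genes. The members and lists were chosen with earlier results of these data known. Same-numbered samples were checked for pairing: their deviations correlated at -0.052, 0.027 and -0.027 (scanner) and -0.046, -0.044 and 0.052 (table). Such low values cannot show whether the numbers pair samples. By this measure scanner and table values of one label at 12 h correlated at only 0.02, 0.0794 and 0.144. Alternatives were normexp background correction (on median signals), other normalizations and filters, mean of probes, slide and replicate blocks, and leaving out each sample.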

Additional observations from a re-analysis of the deposited data

How the results depend on the processing

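With normexp correction the scanner values gave 1600 genes higher and 1472 lower, 556 shared falls, 140 opposite calls, and 25 shared rises and 4 shared falls from 6 h to 12 h. Quantile normalization of the table gave 1152 genes higher there, 674 shared rises, 159 opposite calls, and 8 and 4 shared changes from 6 h. Requiring signal well above background on every array at both times left 750 shared falls, and 27 and 7 shared changes from 6 h, with fewer genes tested. With the adjusted p alone, which lifts the fold minimum by construction, there were 6655 genes higher and 7265 lower in the scanner values, 8668 and 4930 in the table, 4589 shared rises, 3373 shared falls, 2906 opposite calls, 12186 differing changes, and 1553 and 646 shared changes from 6 h. Apart from the last, the cause was not tested. Without each sample in turn, the scanner gave 2471 to 2586 genes higher and 3075 to 3161 lower, the deposited ratios 2759 to 3000 and 2177 to 2300, with 1137 to 1202 shared rises, 1151 to 1189 shared falls, 274 to 294 opposite calls, 5185 to 5443 differing changes, and 54 to 59 and 16 to 21 shared changes from 6 h. The replicate block gave 2526 genes higher and 3100 lower in the scanner values, 2881 and 2226 in the table, 1175 shared rises and 1162 shared falls, and it changed the call of 0 of the 538 values of named genes. No value of a named gene that was called changed sign under these settings. Signals below background or saturated limit the scanner values of 1650 genes to a bound.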
